A study of Mus musculus with 8 samples.

Results

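The comparison described here set mouse hippocampus 10 d after status epilepticus against control hippocampus. It was chosen by its labelled time point and by no measured value, and it covered 4 of the 8 samples of the series, 2 at 10 d and 2 controls. The samples came from C57BL/6 mice, and each sample was cDNA pooled from 2 animals. The other samples, 2 at 12 h and 2 at 6 wk, were used only to estimate the spread of miRNA counts and to set the 10 d values beside those times. The sources used here do not give the inducing agent, the treatment of the controls, or the age and sex of the animals. The mRNA comparison held 17227 genes with a fold of 20258 gene symbols, and the small RNA comparison held 422 tested miRNAs of 1251 names.

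Status epilepticus is a seizure that does not end by itself, and in rodents it is commonly followed, after a seizure-poor latent stage, by spontaneous recurrent seizures. During that stage microglia and astrocytes of the hippocampus react, vulnerable neurons of the hilus and the pyramidal layers die or are remodelled, and granule cell axons sprout. MicroRNAs are short RNAs that lower the output of mRNAs carrying a match to their seed, which spans bases 2 to 8 of the mature miRNA.

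In the small RNA libraries, some miRNAs best known from immune cells and inflammatory signalling were higher at 10 d, 4 of the 13 listed as inflammation-linked. Of 422 tested miRNAs, 11 were higher (2.61%) and 3 were lower (0.711%) at a Benjamini-Hochberg adjusted p under 0.05 in edgeR's quasi-likelihood test. Without control 7 the counts were 3 and 0, and without 10 d library 4, the smallest, they were 4 and 0; miR-21a-5p, miR-146a-5p and miR-142-5p passed each time. The mature sequences of the 9 of these 14 miRNAs found in the reference are shown with their seeds in capitals, because a seed decides which mRNAs a miRNA can pair with; miR-146b-5p and miR-132-3p are added because each shares its seed with a miRNA that was higher. All are RefSeq sequences on GRCm38.p6, printed 5′ to 3′, and each was identical to mm9 at the position the authors' file gives.
miR-21a-5p: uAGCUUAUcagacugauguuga
miR-146a-5p: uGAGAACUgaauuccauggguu
miR-146b-5p: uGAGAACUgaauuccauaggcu
miR-142-5p: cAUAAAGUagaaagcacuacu
miR-155-5p: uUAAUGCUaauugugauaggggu
miR-212-3p: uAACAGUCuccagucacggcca
miR-132-3p: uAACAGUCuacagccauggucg
miR-455-3p: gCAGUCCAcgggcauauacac
miR-1964-3p: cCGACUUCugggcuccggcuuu
miR-673-3p: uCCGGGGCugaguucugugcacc
miR-488-5p: cCCAGAUAauagcacucucaa

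On mm9, miR-21a-5p lies on the minus strand at chr11:86397622-86397643 in an exon of Vmp1, and miR-142-5p on the plus strand at chr11:87570369-87570389 in an intron of the noncoding transcript A430104N18Rik. miR-146a-5p at chr11:43187937-43187958 on the minus strand overlapped no annotated gene. miR-155-5p at chr16:84714388-84714410 on the plus strand lies in an exon of its own noncoding host, Mir155. The pair miR-212-3p at chr11:74986945-74986966 and miR-132-3p at chr11:74987225-74987246 shares an intron of 1700016P03Rik on the plus strand. miR-455-3p lies in an intron of Col27a1 and miR-488-5p in an intron of Astn1.

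The 4 libraries held 1106436 and 1649297 miRNA tags in controls 7 and 8, and 2403624 and 545672 tags in the 10 d libraries 3 and 4. The 8 libraries ranged from 545672 to 3325374 tags, so that 3 tags, taken as the limit that a count of 0 allows, correspond to 0.902 to 5.50 CPM, the usual tag count scaled to a common library total; this limit covers counting error only. Across the 422 tested miRNAs the log2 values of the paired libraries of a group correlated at Pearson's r of 0.982 at 10 d and 0.986 in controls. Brain miRNAs were abundant throughout, among them miR-9-5p, miR-128-3p and miR-124-3p, which is known from neurons. Because the labels describe polyadenylated RNA libraries alone, the sources used here do not say how the small RNA libraries were made or from which pools, and the miRNA p-values reflect library-to-library spread, which may be technical. All miRNA levels below are CPM scaled by trimmed mean of M-values (TMM), and each fold change is a difference of fitted log2 values, 10 d minus control.

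miR-21a-5p, which is raised in many kinds of tissue injury, stood at 621 and 806 CPM in controls 7 and 8 and at 2476 and 2901 in the 10 d libraries 3 and 4. The groups did not overlap, and the lower 10 d library was still well above the higher control. The log2 fold change was 1.91 ± 0.15 (SE, n = 2 libraries per group; edgeR adjusted p = 2.36e-07). Set directly against the 12 h libraries, without the controls, miR-21a-5p was higher at 10 d by 1.44 on the log2 scale (edgeR adjusted p = 4.67e-06), and against 6 wk it was higher by 0.51 (edgeR adjusted p = 0.0448).

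miR-146a-5p, which is induced by NF-kB and restrains Toll-like receptor and interleukin-1 signalling, was the most abundant of the miRNAs that were higher. Its levels were 2337 and 3030 CPM in controls and 8789 and 10129 at 10 d, without overlap. The log2 fold change was 1.82 ± 0.16 (SE, n = 2 libraries per group; edgeR adjusted p = 4.98e-07). It was 2.00 higher at 10 d than at 12 h (edgeR adjusted p = 2.59e-07), and its difference from 6 wk was -0.29 and did not pass (edgeR adjusted p = 0.353). miR-146b-5p, with the same seed GAGAACU, was at 8483 and 10771 CPM in controls and at 9647 and 10880 at 10 d. Those ranges overlap, and the log2 fold change of 0.09 ± 0.15 did not pass (edgeR adjusted p = 0.781). In controls miR-146b-5p was the more abundant of the pair, whereas at 10 d their levels were of similar size.

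miR-142-5p, a miRNA of blood-forming cells that in brain is largely carried by microglia and infiltrating leukocytes, rose from 302 and 352 CPM to 914 and 952. Both 10 d libraries were above both controls, and the log2 fold change was 1.51 ± 0.14 (SE, n = 2 libraries per group; edgeR adjusted p = 1.40e-06). It was also 1.37 above 12 h (edgeR adjusted p = 4.67e-06). miR-155-5p, a miRNA of activated macrophages and lymphocytes, was rare, with 1 and 6 tags in controls against 38 and 9 tags at 10 d. That is 0.971 and 3.98 CPM in controls and 15.6 in each 10 d library. Its log2 fold change of 2.48 ± 0.54 passed (edgeR adjusted p = 0.0292), but rests on few tags and depends on the prior count of the fit. It did not pass when control 7 or either 10 d library was left out. miR-155-5p was lower at 10 d than at 6 wk by -1.24 on the log2 scale (edgeR adjusted p = 0.0360).

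**Figure D1:**
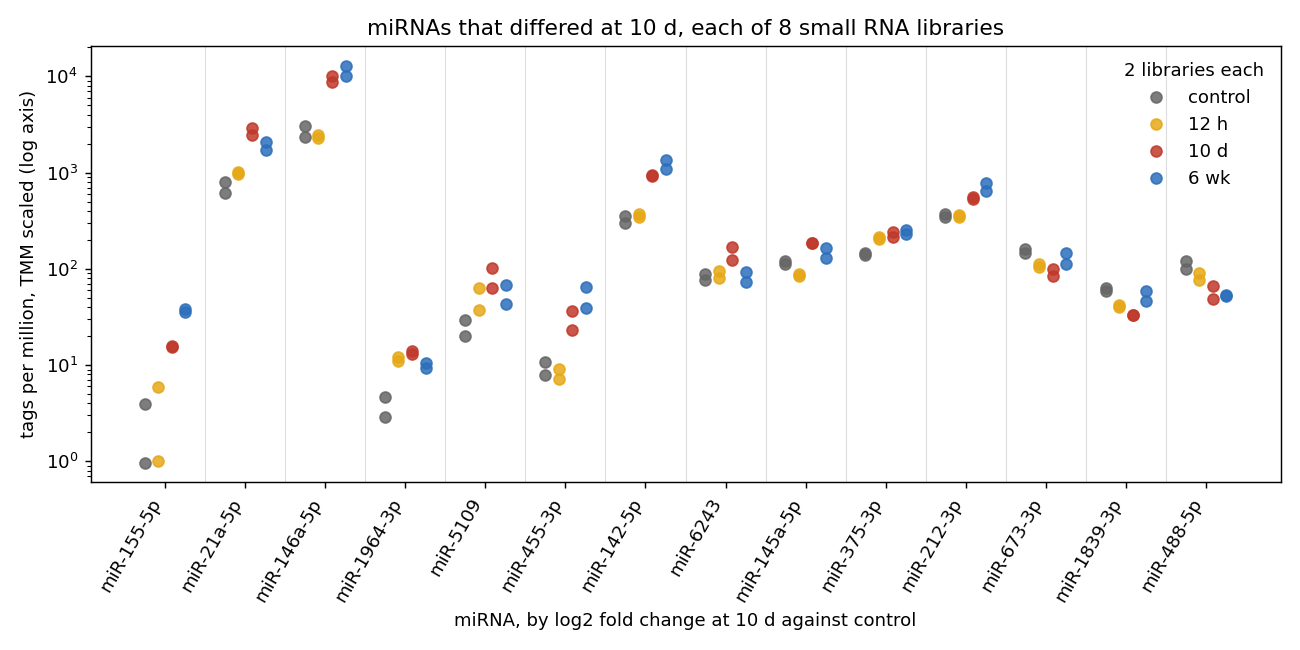
Level in CPM (TMM scaled, log axis) of the 14 miRNAs that differed at 10 d, with 1 point for each of the 8 libraries and colours for control, 12 h, 10 d and 6 wk. miR-21a-5p, miR-146a-5p and miR-142-5p have both 10 d points far above both controls, and miR-155-5p lies near the bottom of the axis at 15.6 CPM.

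miR-212-3p, which is transcribed from the activity-regulated and CREB-responsive miR-212/132 locus, stood at 349.6 and 369.7 CPM in controls and at 564.5 and 537.3 at 10 d. It did not overlap between groups and rose by 0.62 ± 0.14 on the log2 scale (SE, n = 2 libraries per group; edgeR adjusted p = 0.0373), but it did not pass when any 1 of the 4 libraries was left out. miR-132-3p, which has the same seed and the same host intron, was at 1763 and 1695 CPM in controls and at 2241 and 1978 at 10 d, and its log2 fold change of 0.29 ± 0.13 did not pass (edgeR adjusted p = 0.202).

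The other miRNAs that were higher were miR-455-3p (log2 fold change 1.56), miR-1964-3p (1.74), miR-5109 (1.72), miR-6243 (0.81), miR-145a-5p (0.68) and miR-375-3p (0.66). miR-145a-5p, known from smooth muscle and pericytes, had 112 and 119 CPM in controls and 187 and 184 at 10 d. miR-375-3p, best known from endocrine cells, was at 145 and 141 in controls and at 213 and 241 at 10 d. For miR-375-3p the 12 h libraries were already at 204 and 215 CPM, and the 10 d difference from 12 h was 0.11 (edgeR adjusted p = 0.784). These 6 passed under at most 5 of the alternatives tried for each, and miR-145a-5p and miR-1964-3p under 3. Among abundant miRNAs, miR-10a-5p and miR-379-5p, named here after their values were seen, had fold changes of like size that did not pass. miR-10a-5p was at 212 and 356 CPM in controls and 690 and 1021 at 10 d (log2 fold change 1.57 ± 0.32, edgeR adjusted p = 0.0666). miR-379-5p was at 409 and 614 in controls and 1700 and 1967 at 10 d (log2 fold change 1.84 ± 0.56, edgeR adjusted p = 0.189).

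The 3 lower miRNAs were miR-488-5p, miR-1839-3p and miR-673-3p. miR-488-5p, whose host Astn1 encodes astrotactin, a neuronal protein of glia-guided migration, was at 121 and 100 CPM in controls and at 67.1 and 48.5 at 10 d, a log2 fold change of -0.89 ± 0.21 (SE, n = 2 libraries per group; edgeR adjusted p = 0.0373). miR-1839-3p fell from 63.1 and 59.1 to 32.9 in each 10 d library, and miR-673-3p from 146 and 161 to 100 and 84.9. On mm9 the position of miR-1839-3p lies in an exon of the small nucleolar RNA AC167122.1, within an intron of the noncoding 2900076A07Rik. Whether its tags came from that small nucleolar RNA was not tested. For each of the 3, both 10 d libraries were below both controls, but miR-673-3p passed under only 3 of 10 alternatives and miR-1839-3p under 2 of 9.

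**Figure D2:**
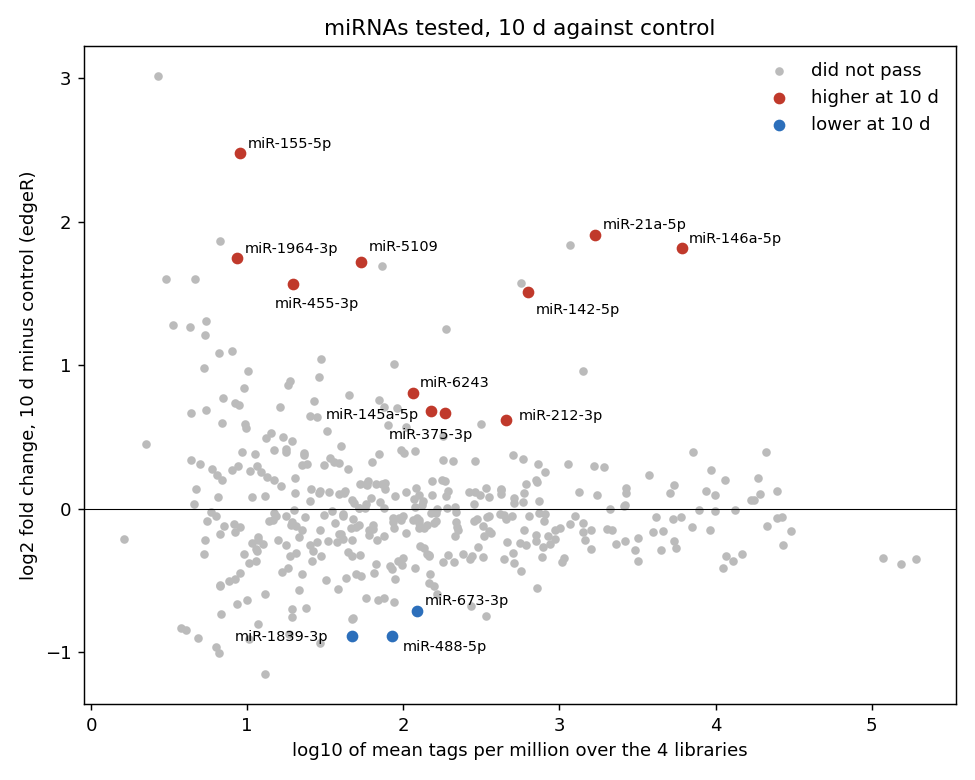
Log2 fold change at 10 d against control (edgeR) by log10 of the mean CPM over the 4 libraries, with 1 point for each of 422 tested miRNAs. The 11 higher miRNAs are red, the 3 lower ones blue, and the most abundant miRNAs, at the right, lie just below 0.

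Lists of miRNAs by cell type or role gave the following picture, beside a median log2 fold change of -0.05 over all 422. Of 13 inflammation-linked miRNAs 4 were higher and none lower, beside 2.61% and 0.711% of all 422, with a median of 0.57. The 4 were miR-155-5p, miR-21a-5p, miR-146a-5p and miR-142-5p, all described above. The list was chosen with earlier results of these data known and gives no separate support. In that list, miR-27a-3p, at 219 and 279 CPM in controls against 329 and 428 at 10 d, did not pass (edgeR adjusted p = 0.0684). miR-223-3p, the defining miRNA of neutrophils, was close to absent, at 0.971 and 6.64 CPM in controls and 3.71 and 6.93 at 10 d.

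Of 19 neuron-enriched miRNAs none passed in either direction, and their median was -0.19. miR-124-3p was at 5106 and 6524 CPM in controls and at 4940 and 5011 at 10 d (log2 fold change -0.23, edgeR adjusted p = 0.351). miR-128-1-5p had the lowest fold change of that list, -0.59, and did not pass (edgeR adjusted p = 0.0625). Of 16 activity-linked miRNAs only miR-212-3p passed; miR-134-5p, a regulator of dendritic spines, was at 67.0 and 61.1 CPM in controls and 96.3 and 95.3 at 10 d (edgeR adjusted p = 0.100). Of 17 miRNAs listed for astrocytes and oligodendrocytes only miR-145a-5p passed, which is known from smooth muscle and pericytes, as given above. No member of the let-7 (18 tested), miR-30 (11) or miR-17-92 (8) families passed.

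Some miRNAs of epithelia differed between the 10 d libraries. miR-34c-5p, a miRNA of ciliated epithelium, was at 767 and 1145 CPM in controls and at 1080 and 2681 in the 10 d libraries 3 and 4. miR-204-5p, which is abundant in choroid plexus, was at 7500 and 9132 in controls and at 5773 and 12351 in 10 d libraries 3 and 4. Library 4, the smallest, was thus the highest of the 4 for both, and neither miRNA passed (edgeR adjusted p = 0.361 and 0.918). All 5 miR-34 and miR-449 family members tested had positive fold changes, from 0.39 to 1.08, and none passed. In others library 3 was the higher: miR-182-5p was at 191 CPM in library 3 and 133 in library 4, and miR-183-5p, miR-200b-3p and miR-429-3p were also higher in library 3. None of the 7 miRNAs of choroid plexus and epithelium, and none of the blood-borne (3) or muscle (2) miRNAs, passed. The share of choroid plexus in each library was not tested.

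The 5 most abundant miRNAs at 10 d were miR-127-3p, miR-26a-5p, miR-181a-5p, miR-30a-5p and let-7c-5p, and none passed. miR-127-3p, from an imprinted cluster, was at 220158 and 210245 CPM in controls and 172707 and 164712 at 10 d (log2 fold change -0.35, edgeR adjusted p = 0.115). Without overlap between the groups were 92 miRNAs that were higher (21.8%) and 106 that were lower (25.1%), and at an unadjusted p under 0.05 edgeR gave 43 higher and 41 lower.

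For mRNA, the phagocyte, complement and astrocyte lists, pooled here, held higher genes and no lower ones at 10 d, 29 higher of 76 genes. That none was lower follows from the choice of lists pooled. Outside that pool, the resting microglia list had 2 lower of 18, the cytokine list 3 of 28 and the myelin list 4 of 18. The antigen presentation list had none lower of 14. Lower genes were the more frequent among granule and pyramidal cell genes (15 lower and 1 higher of 24) and ion channels (23 lower and 5 higher of 66). The same held for glutamate and GABA genes (19 lower and 4 higher of 64) and genes of release and adhesion (15 lower and none higher of 39). In all of these groups but granule and pyramidal cell genes most members did not pass or were mixed. The groups leave out the neurogenesis list (5 lower and 3 higher of 19) and the neuropeptide and interneuron list (3 lower and 2 higher of 21). By the authors' deposited table, 1352 genes were higher (7.85%) and 1942 were lower (11.3%) at a mean q under 0.05 with a mean signed fold of at least 1 in size. A further 618 genes had such a q with a smaller mean fold and are called mixed, and 13315 did not pass. Each fold is the authors' mean over 4 pairs, 2 treated with 2 control libraries, with a negative sign read as lower at 10 d. Such a mean is not the ratio of 2 means, because 1 pair with a control near 0 can make it large. A mean of at least 1 in size does not show that the 4 pairs agreed in sign. A mean of q-values is not itself an error rate. The median over genes with a fold was 0.689, that of the higher genes was 6.99 and that of the lower genes was -6.12. These values carry no error or library, so no value per animal pool can be given, and in bulk tissue fewer cells of a type and less RNA per cell cannot be told apart.

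Genes of the phagocytic and lysosomal machinery formed one of the groups with the most rises. Of 24 with a fold, 11 were higher (45.8%), none was lower, 2 were mixed and 11 did not pass, and the median fold was 8.60. Ctsd, the aspartic protease cathepsin D, had a mean fold of 15.0 per the authors' deposited table (mean q = 0.000188). Hexa, a lysosomal hexosaminidase subunit that degrades gangliosides, had a fold of 16.3 per the authors' deposited table (mean q = 5.71e-06). Apoe, the main lipid carrier of brain (mm9 chr7:20281593-20284515), had a fold of 6.60 per the authors' deposited table (mean q = 8.66e-16). Cd68, the lysosomal glycoprotein used to mark phagocytes, had a fold of 488 per the authors' deposited table (mean q = 7.13e-08). Ctsz, Ctsl, Lamp2 and Grn were also higher, at folds of 6.68, 4.25, 2.03 and 1.14 per the authors' deposited table, while Ctsb, cathepsin B, was mixed at 0.809.

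Markers of resting microglia included higher and lower genes. Of 18 genes, 3 were higher (16.7%) and 2 lower (11.1%), with a median of 4.30. The lower share lies close to the 11.3% of all genes, and 7.85% of all genes were higher. Csf1r, the receptor that microglia need for survival, rose to a fold of 3.89 per the authors' deposited table (mean q = 0.00159), as did Siglech at 2.34 and Tgfbr1 at 4.51. Tmem119, a marker of resident microglia, was lower at -2.66 per the authors' deposited table (mean q = 2.69e-09), and Cd53, a leukocyte tetraspanin, was lower at -32.7. P2ry12, the purine receptor of surveying microglia, had a fold of 4.59 per the authors' deposited table and did not pass (mean q = 0.189).

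Complement genes were higher in 7 of 18 cases (38.9%) and lower in none, with a median fold of 4.45. C1qa and C1qc, chains of the C1q complex that tags material for removal, had folds of 21.0 (mean q = 8.66e-16) and 3.18 (mean q = 4.65e-06) per the authors' deposited table. C1qb, their partner chain, had a fold of 7.88 and did not pass (mean q = 0.165). Regulators of the cascade were higher as well: Serping1, the C1 inhibitor, had a fold of 162 and Clu, clusterin, of 3.14 per the authors' deposited table. C4b, a component of the classical pathway, had 42.4, and C3ar1, the C3a receptor, had 96.3 (mean q = 0.0265) per the authors' deposited table.

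Of 14 genes of antigen presentation only H2-D1, a class I heavy chain, was higher (7.14%), at a fold of 39.3 per the authors' deposited table. That share lies close to the 7.85% of all genes. B2m, its light chain, had a fold of 13.6 per the authors' deposited table and did not pass (mean q = 0.0731).

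Among 28 cytokine and growth factor signalling genes 4 were higher (14.3%, beside 7.85% of all genes) and 3 lower. Tgfb1, the ligand TGF-beta 1, had a fold of 49.9 per the authors' deposited table (mean q = 4.50e-06). The 3 lower genes are a share of 10.7%, close to the 11.3% of all genes. They were the TGF-beta receptor Tgfbr2 at -4.09, the signal transducer Smad3 at -6.56 and the inhibitor Smad7 at -12.9 per the authors' deposited table, whereas the partner receptor Tgfbr1 was higher, as given with the microglial genes. On the gp130 route, the shared receptor Il6st had 2.24 and its transcription factor Stat3 had 10.5 (mean q = 1.11e-15) per the authors' deposited table. Nfkbia, which holds NF-kB in the cytoplasm and is itself an NF-kB target, had 13.3 per the authors' deposited table (mean q = 0.00781).

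Astrocyte genes for water, potassium and glutamate clearance were higher in 8 of 17 cases (47.1%), with 5 mixed, 4 that did not pass and none lower. Their folds were modest, with a median of 1.87. Aqp4, the water channel of endfeet, had a fold of 4.10 per the authors' deposited table. Glul, glutamine synthetase, had 1.88, Glud1, glutamate dehydrogenase, had 2.94 and Gja1, the gap junction protein connexin 43, had 2.24 per the authors' deposited table. Atp1b2, a beta subunit of the sodium pump, was higher at 1.87 per the authors' deposited table, and so was Sox9, an astrocyte transcription factor, at 8.24. Slc1a2, the main glutamate transporter, was mixed at 0.187 per the authors' deposited table (mean q = 1.22e-15), and the potassium channel Kcnj10 did not pass at 0.914.

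Of 17 genes of reactive astrocytes 3 were higher (17.6%, beside 7.85% of all genes) and none lower, with a median fold of 5.51. Vim, the intermediate filament vimentin, had 7.96 (mean q = 1.30e-14), Serpina3n, a secreted protease inhibitor, had 7.53 and Slc39a14, a zinc and iron importer, had 8.98 per the authors' deposited table. Gfap, the filament that defines reactive astrocytes, had a fold of 8.47 per the authors' deposited table but did not pass (mean q = 0.194).

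Metal handling and polyamine genes were counted next. Of 11 genes of metal handling 5 were higher (45.5%), none was lower, 1 was mixed and 5 did not pass; the higher ones were the metallothioneins Mt1 (3.03), Mt2 (5.14) and Mt3 (80.1) and the ferritin chains Fth1 (1.64) and Ftl1 (126), all folds per the authors' deposited table. Slc30a3, the zinc transporter of mossy fibre vesicles, was mixed at -0.392 per the authors' deposited table. Of 10 polyamine genes 4 were higher (40.0%) and 6 did not pass. The 4 were Odc1, the rate-limiting synthetic enzyme, at 27.5, the catabolic enzymes Smox at 67.9 and Sat1 at 142, and spermine synthase, Sms, at 1.51 per the authors' deposited table.

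**Figure D3:**
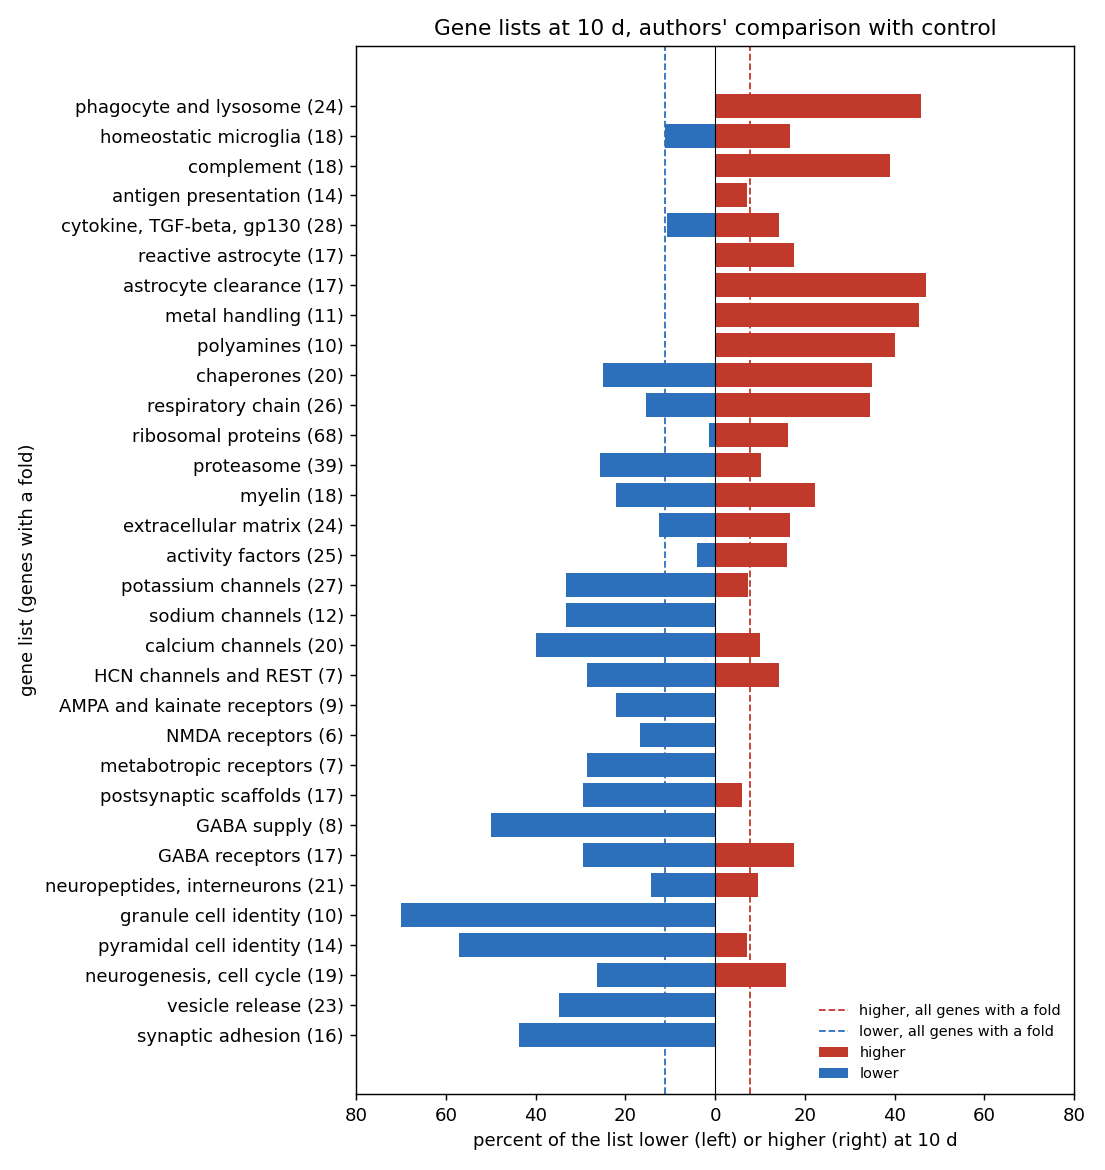
Percent of the genes of each list that were lower (left, blue) or higher (right, red) at 10 d in the authors' comparison, with the number of genes with a fold in brackets; dashed lines mark 11.3% lower and 7.85% higher over all genes. Phagocyte, complement and astrocyte clearance lists extend to the right, and granule and pyramidal cell lists extend furthest to the left.

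Genes that mark hippocampal principal neurons were lower. Of 10 granule cell genes 7 were lower (70.0%), none was higher and 1 was mixed, with a median fold of -3.05. Prox1, the homeobox factor that sets granule cell identity (mm9 chr1:191945658-191994559), had -4.51 per the authors' deposited table (mean q = 1.22e-15). Calb1, the calcium buffer calbindin (mm9 chr4:15808411-15833856), had -8.01 per the authors' deposited table (mean q = 9.19e-09). Dsp, desmoplakin, had -19.0, Stxbp6, amisyn, had -35.5 and Trpc6, a cation channel, had -58.5 per the authors' deposited table, whereas C1ql3, a secreted synaptic protein, had -1.59.

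Of 14 pyramidal cell genes 8 were lower (57.1%) and 1 was higher, with a median fold of -1.52. Fibcd1, a CA1 marker, had -36.4 (mean q = 4.64e-07), and Pou3f1, a POU factor of CA1, had -47.1 (mean q = 2.25e-09) per the authors' deposited table. Nr3c2, the mineralocorticoid receptor, had -11.2 and Amigo2, a marker of CA2, had -9.79 per the authors' deposited table. Slc17a7, the vesicular glutamate transporter VGLUT1, had -1.92 and Neurod6 had -1.12 per the authors' deposited table, both far smaller sizes. Wfs1, another CA1 marker, was mixed at 0.748.

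Of 21 neuropeptide and interneuron genes 3 were lower (14.3%) and 2 higher (9.52%), shares near the 11.3% and 7.85% of all genes. Sst, somatostatin, the peptide of dendrite-targeting hilar interneurons, had -7.90 per the authors' deposited table (mean q = 5.21e-05). Npy, neuropeptide Y, had -3.74 and its receptor Npy1r had -14.7 per the authors' deposited table. Penk, the enkephalin precursor, had 17.8 and Calb2, calretinin, had 1.32, both higher, and Vip had -3.91 and did not pass (mean q = 0.432) per the authors' deposited table.

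Sst is a classical gene with a cAMP response element, the sequence TGACGTCA that CREB can bind. Its RefSeq promoter window, from 250 bases before to 50 after the start, on the minus strand at GRCm38.p6 chr16:23890795-23891094, is shown with the element in capitals; the first base of the element lies 48 bases before the start.
Sst promoter: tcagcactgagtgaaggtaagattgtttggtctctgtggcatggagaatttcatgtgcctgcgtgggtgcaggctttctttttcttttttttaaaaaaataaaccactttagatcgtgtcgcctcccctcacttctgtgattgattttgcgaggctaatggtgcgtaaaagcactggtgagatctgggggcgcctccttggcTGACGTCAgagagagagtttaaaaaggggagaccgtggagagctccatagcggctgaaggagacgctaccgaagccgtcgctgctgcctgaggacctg

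The element reads the same on both strands. Of 11983 genes with a fold that have a window in the RefSeq table, 3.06% held the element, against 3.10% of 969 higher and 3.30% of 1364 lower genes. The authors also listed regions named for CREB. In the list with the most genes, 33.4% of higher and 32.7% of lower genes had a region within 2000 bases, beside 31.7% of all genes with a fold, and Sst had none. Both measures were thus close to their background. Of 25 activity-regulated transcription factors and cofactors 4 were higher (16.0%) and 1 was lower (4.0%), beside 7.85% and 11.3% of all genes. Fosb, a stable activity-induced factor, had 30.2 (mean q = 3.02e-08), Fos had 9.37 and Egr2 had 12.2 per the authors' deposited table. Crtc2, a CREB coactivator, had 3.80 (mean q = 2.60e-12), and Ep300, a histone acetyltransferase recruited by CREB, had -1.13 per the authors' deposited table. Of 15 trophic factor and receptor genes 1 was higher and 1 lower (6.67% each), beside 7.85% and 11.3% of all genes. Inhba, activin A, had 43.2 (mean q = 8.66e-16), Sort1, a sorting receptor, had -3.33, and Bdnf had 2.24 and did not pass (mean q = 0.145) per the authors' deposited table.

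Voltage-gated channels set how readily a neuron fires. Of 27 potassium channel genes 9 were lower (33.3%) and 2 higher, with a median fold of -3.93. Kcnip2, an auxiliary subunit of A-type channels (mm9 chr19:45868160-45890293), had -62.3 (mean q = 8.66e-16) and its pore partner Kcnd3 had -7.40 (mean q = 3.80e-15) per the authors' deposited table. The delayed rectifiers Kcna2 and Kcnc2 had -6.71 and -22.7, and Dpp6, a further A-type subunit, had -2.12 per the authors' deposited table. Kcnip3, also known as the transcriptional repressor DREAM, was higher at 4.14 per the authors' deposited table (mean q = 0.00257).

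Of 12 sodium channel genes 4 were lower (33.3%), none was higher and 2 were mixed. Scn1a, the channel of fast-spiking interneurons, had -8.51 (mean q = 0.0278), Scn3a had -6.77, Scn8a, the main channel of the axon initial segment, had -1.83 and the beta subunit Scn4b had -30.0 per the authors' deposited table. Scn2a1 was mixed.

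Of 20 calcium channel genes 8 were lower (40.0%) and 2 higher, with a median of -2.84. The L-type Cacna1c had -13.6 (mean q = 1.25e-09), the N-type Cacna1b had -11.3 and the R-type Cacna1e had -5.91 per the authors' deposited table. The T-type genes went opposite ways, with Cacna1g at 3.02 (mean q = 3.33e-10) and Cacna1h at -4.85 (mean q = 7.42e-05) per the authors' deposited table. Of 7 genes of hyperpolarization-activated channels and the REST repressor 2 were lower (28.6%) and 1 higher (14.3%), beside 11.3% and 7.85% of all genes. Hcn2, a channel of that family, had 6.62 (mean q = 0.0370) per the authors' deposited table. Pex5l, the TRIP8b subunit that traffics these channels, had -3.66, and Rest, the repressor of neuronal genes, had 6.80 and did not pass (mean q = 0.229) per the authors' deposited table.

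Of the glutamate receptor genes 5 were lower and none was higher. The lower shares were 22.2% of AMPA and kainate, 16.7% of NMDA and 28.6% of metabotropic receptor genes, beside 11.3% of all genes. Of 9 AMPA and kainate receptor genes 2 were lower, Gria1 at -1.44 and Gria3 at -2.45 per the authors' deposited table. Of 6 NMDA receptor genes Grin2b was lower at -4.08 (mean q = 3.23e-09), and Grin1 was mixed at 0.0222 per the authors' deposited table. Of 7 metabotropic receptor genes 2 were lower, among them Grm3 at -7.66 per the authors' deposited table. On the postsynaptic side, 5 of 17 scaffold and kinase genes were lower (29.4%), among them Dlgap2 at -23.0, Homer3 at -9.75 and Camk2b at -2.27, and Dlgap3 was higher at 2.60 per the authors' deposited table.

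Of 8 genes of GABA supply and chloride transport 4 were lower (50.0%) and none was higher. Gad2, a GABA-synthesizing enzyme, had -4.23 and the vesicular transporter Slc32a1 had -8.26 per the authors' deposited table. Slc12a2, the chloride importer NKCC1, had -2.08 (mean q = 1.17e-06), and the exporter Slc12a5, KCC2, had -0.841 and did not pass (mean q = 0.247) per the authors' deposited table. Gad1 did not pass either, at -1.04 (mean q = 0.163).

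GABA receptor genes went both ways, with 5 of 17 lower (29.4%), 3 higher (17.6%) and 3 mixed. The alpha subunit Gabra4 had -10.5, whereas Gabra2 and Gabra5 had 2.80 and 1.91 per the authors' deposited table. Gabbr2, a subunit of the metabotropic GABA-B receptor, had -6.38, and Gphn, the scaffold gephyrin, had 2.63 per the authors' deposited table.

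Of 23 genes of vesicle release 8 were lower (34.8%), none was higher and 4 were mixed. Syn2, synapsin II, had -15.5, Syp, synaptophysin, had -2.68 and the active zone protein Pclo, piccolo, had -2.43 per the authors' deposited table. Nsf, which recycles SNARE complexes, had -1.62 per the authors' deposited table. Of 16 synaptic adhesion genes 7 were lower (43.8%) and none higher, with the neuroligin Nlgn1 at -6.42, Lrrtm1, Lrrtm2 and Lrrtm3 at -2.59, -3.47 and -5.78 and Adam22, the receptor of LGI1, at -24.0 per the authors' deposited table.

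**Figure D4:**
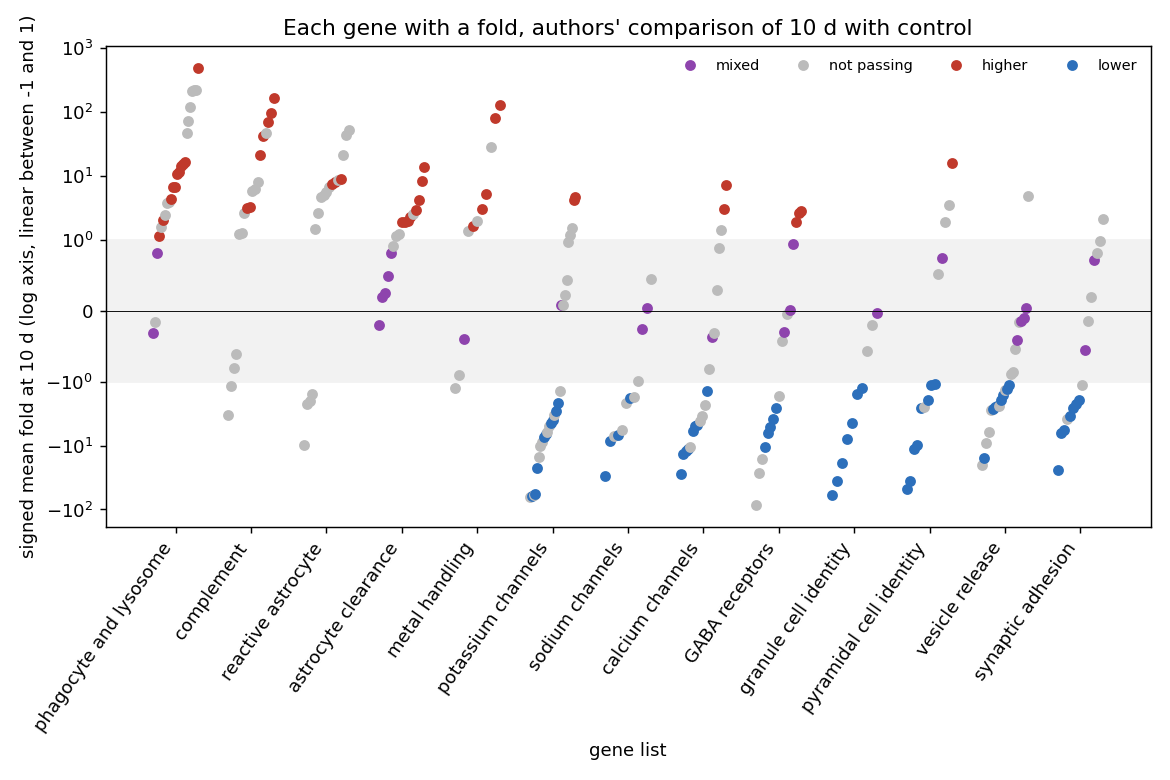
Signed mean fold at 10 d of each gene with a fold in 13 lists, in the authors' comparison, on an axis that is logarithmic beyond 1 in size and linear between -1 and 1 (grey band); red is higher, blue lower, purple mixed and grey not passing. The phagocyte, complement and astrocyte clearance lists hold no blue point, and the granule cell, vesicle release and adhesion lists hold no red one.

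Of 19 genes of neurogenesis and cell cycle 3 were higher (15.8%), 5 lower (26.3%) and 3 mixed, beside 7.85% higher and 11.3% lower of all genes. Sox2, a stem cell factor, had 7.96 and the cyclins Ccnd1 and Ccnd2 had 9.64 and 1.60 per the authors' deposited table. Hes5, a Notch effector of stem cells, had -64.0, and the genes of young neurons Dcx, Neurod1, Sox4 and Stmn1 had -3.72, -5.88, -11.2 and -11.4 per the authors' deposited table. Among 18 myelin genes 4 were higher and 4 lower (22.2% each). Mobp had 2.76, Cnp 1.75 and Olig2 13.4, and Opalin had -32.5, Fa2h -10.2 and Olig1 -1.56 per the authors' deposited table. In the extracellular matrix list, 4 of 24 were higher (16.7%) and 3 lower (12.5%), beside 7.85% and 11.3% of all genes. Timp3, an inhibitor of matrix proteases, had 14.6, the protease Adamts1 had 9.69 and Sparc had 3.16, while Tnr, tenascin-R of perineuronal nets, had -9.55 (mean q = 8.66e-16) per the authors' deposited table. Of 15 vessel genes Flt1 and Kdr, both VEGF receptors, were higher (13.3%) at 2.00 and 7.27 per the authors' deposited table, and none was lower.

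Housekeeping machinery was uneven, and its counts stand beside 7.85% higher and 11.3% lower over all genes. Of 20 chaperone genes 7 were higher and 5 lower, with Cryab at 5.73, Hspa8 at 4.08 and Xbp1 at 3.80 against Hspa1a at -70.4 and Hsp90aa1 at -3.15 per the authors' deposited table; Hspa1a has a near-identical copy in Hspa1b, which had -1.91 and did not pass. Of 26 respiratory chain genes 9 were higher (34.6%) and 4 lower, for example Uqcrfs1 at 3.45 and Sdhd at -5.40 per the authors' deposited table. Of 68 ribosomal protein genes with a fold 11 were higher and 1 lower, but many such genes have near-identical pseudogenes and 24 shared their exact fold and q with another gene. Of 39 proteasome genes 10 were lower (25.6%), among them Psmd2 at -11.1, and 4 were higher, among them the immunoproteasome subunit Psmb10 at 45.4 per the authors' deposited table. Of 16 mTOR genes 2 were lower (12.5%, near the share of all genes), Tsc1 at -15.3 and Rptor at -6.08, and none was higher per the authors' deposited table. Of 20 cholesterol genes 4 were higher and 3 lower, with the regulators Srebf1 at 9.28 and Srebf2 at -20.8 per the authors' deposited table. Of 17 clock genes 5 were lower and 2 higher, with Rorb at -143, Per1 at -11.0, Dbp at -3.22 and Nr1d1 at 1.94 per the authors' deposited table. Of 10 adenosine genes the transporter Slc29a1 alone was higher (10.0%, near the share of all genes), at 36.9 per the authors' deposited table.

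The 8 largest rises with a mean q under 0.01 were Ttr, Cd68, Pdlim2, Commd1, Lgals9, Pdzd11, 2310009B15Rik and Gramd3, with folds from 167 to 558 per the authors' deposited table. The 8 largest falls were Cyp4v3, Nos1ap, Klf16, 6330416L07Rik, Rpap3, Fam82a2, Slc25a14 and Hsd11b1, with folds from -278 to -161. Of the called genes 719 had a fold of at least 20 in size. Ttr, transthyretin, is the defining transcript of choroid plexus, and its fold was 558 at 10 d per the authors' deposited table (mean q = 3.12e-10). Of 12 choroid plexus genes Ttr alone was higher (8.33%, near the share of all genes) and Enpp2 was mixed, the median fold was 9.03, and 10 did not pass. Those 10 included large positive folds, with Sostdc1 at 239, F5 at 81.5, Kcnj13 at 30.0, Kl at 19.8 and Clic6 at 12.5 per the authors' deposited table. The lowest of them were Folr1 at 1.61, Aqp1 at 0.779 and Otx2 at -3.06 per the authors' deposited table. Aqp1 had exactly the fold and q of Arntl, a clock gene, and 4 of the 12 shared their values with another gene. The part of choroid plexus in the other results was not tested.

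Markers of neighbouring regions and of blood gave little. Of 10 striatal and thalamic genes Ppp1r1b was higher at 3.44 and Rgs9 lower at -7.13 per the authors' deposited table. These are 10.0% each, near the 7.85% and 11.3% of all genes. None of 5 genes of red cells and neutrophils passed, with S100a9 listed at a fold of 0. Of the Y-linked genes Ddx3y was lower at -30.8 (mean q = 0.00432), and Eif2s3y, Kdm5d and Uty, at -32.2, -5.18 and -12.3, did not pass per the authors' deposited table; whether the pools differed in sex was not tested.

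Several of the genes were followed to the other times as examples. Those comparisons share the control libraries, so the values are set side by side without a test. C1qa had 2.57, 21.0 and 0.829 at 12 h, 10 d and 6 wk per the authors' deposited table, passing as higher at 10 d alone and mixed at 6 wk. C1qc and Serping1 also passed as higher at 10 d alone. Other complement genes had other courses. C4b passed as higher at all 3 times, C3ar1 at 10 d and 6 wk, Clu at 12 h and 10 d, and C1qb at 6 wk alone. Prox1 had -0.547, -4.51 and 0.260, and Calb1 had 1.90, -8.01 and -1.51, with both passing as lower at 10 d alone per the authors' deposited table. Cacna1c had -1.14, -13.6 and -0.0462 per the authors' deposited table, again passing at 10 d alone. Stat3 at 8.16, 10.5 and 15.7, Vim at 4.17, 7.96 and 6.09 and Kcnip2 at -5.75, -62.3 and -269 passed at all 3 times per the authors' deposited table. Sst had 2.19, -7.90 and -81.9 per the authors' deposited table and passed at the later times only.

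The share of lower genes rose with exon length. In 16823 genes with a length (97.7%), split into 5 classes of equal size, 5.50% were higher and 4.43% lower in the shortest class (201 to 1834 bases), and 9.81% were higher and 18.5% lower in the longest (5889 to 116828 bases). Among called genes the share that was higher went from 55.4% to 34.6%. Channel and synapse genes are long, so they were also counted in the 4 shorter classes, where 7.44% of all genes were higher and 9.50% lower. There, 11 of 34 channel genes (32.4%) and 10 of 29 glutamate and GABA genes (34.5%) were lower. In each of these groups 4 were higher (11.8% and 13.8%). Lower, with none higher, were 9 of 18 release and adhesion genes (50.0%) and 12 of 18 granule and pyramidal cell genes (66.7%). In the longest class 12 of 32 channel genes (37.5%) and 9 of 35 glutamate and GABA genes (25.7%) were lower. So were 6 of 21 release and adhesion genes (28.6%) and 3 of 6 granule and pyramidal cell genes (50.0%), beside 18.5% of all genes in that class. Of 60 phagocyte, complement and astrocyte genes in those classes 25 were higher (41.7%) and none was lower. That none was lower follows from the lists pooled, since over all lengths the resting microglia list had 2 lower of 18 and the cytokine list 3 of 28.

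**Figure D5:**
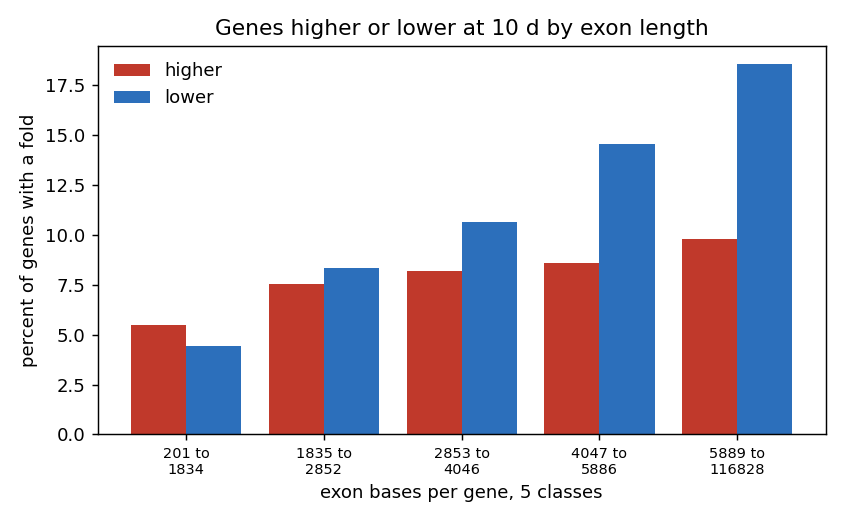
Percent of genes with a fold that were higher (red) or lower (blue) at 10 d in 5 classes of exon bases per gene from the mm9 annotation. Lower genes go from 4.43% in the shortest class to 18.5% in the longest, and higher genes from 5.50% to 9.81%.

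Many folds were not specific to a gene. Of 17227 genes, 5294 (30.7%) had exactly the same fold and q as another gene, the most common pair being a fold of 1.26 with a q of 0.770 in 509 genes. Of the called genes 2 were among them. Shared values were held by 6 of 18 complement, 5 of 21 neuropeptide and interneuron, 4 of 12 choroid plexus and 3 of 5 blood genes. The medians of such lists include values that are not specific to a gene. With the 11933 genes of unshared values as the base, 11.3% were higher and 16.3% lower.

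Textbook targets of the higher miRNAs were looked up after the miRNA results were known, without testing any site. Of 23 such genes 5 were lower, 1 was higher, 1 was mixed and 16 did not pass. Over all genes with a fold 11.3% were lower and 7.85% higher, and an excess among the targets was not tested. Traf6, a target of miR-146a-5p that relays interleukin-1 receptor signals, had -9.87 (mean q = 0.00325), and its partner Irak1 was mixed at -0.842 per the authors' deposited table. Of the 7 listed for miR-21a-5p, Pdcd4, a translation inhibitor, had -15.3 and Timp3 had 14.6 per the authors' deposited table. None of 6 listed for miR-155-5p passed. For miR-212-3p, Arhgap32, a spine regulator, had -1.76 and Rasa1 had -13.3 per the authors' deposited table. Host genes were read the same way: Tmem49, the table's name for Vmp1 with miR-21a-5p in an exon, had 1.38 (mean q = 0.0300), and Astn1, with miR-488-5p in an intron, had -2.80 and did not pass (mean q = 0.128) per the authors' deposited table. Tmem180, with miR-146b-5p in an intron, was lower at -5.42 (mean q = 4.38e-06), while miR-146b-5p did not pass. Col27a1, with miR-455-3p, had 0.666, and Zfp84, with miR-1964-3p, had -3.43 per the authors' deposited table, and neither passed although both miRNAs were higher. Of 19 genes of miRNA processing 3 were higher and 3 lower (15.8% each). Eif2c1, Eif2c2 and Eif2c3, which encode Argonaute proteins, had -4.79, 2.04 and 9.45 per the authors' deposited table.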

How the data were processed

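For mRNA the authors deposited signed folds and q-values, averaged by transcript and time, per the file headers; of their non-zero 10 d folds 100.0% were whole millionths within 0.02 when multiplied by 4, as for means of 4 pairs. The sources used here do not say how pairs were scaled and tested. The submitters aligned reads with Bowtie to mm9, per the submitters' processing notes. From 29208 rows, 96 without a gene were left out, and the first of the rows of a symbol stood for the gene; 3031 genes listed at fold 0 (all with q 0.637) had no fold. A gene was called at mean q under 0.05 and a fold of at least 1 in size. The heights of CREB regions, a score the authors deposited, were used only as present or absent. Per the file headers the authors deposited raw tag counts of miRNAs in 8 columns, which were grouped by the time point each column name gives. All rows of a miRNA name held the same counts, so 1 row stood for each name and nothing was summed. The counts were fitted over all 8 libraries with edgeR 4.0.16 (TMM, filterByExpr, glmQLFit, glmQLFTest, R 4.3.3). The coefficient of variation between libraries, as the square root of edgeR's common dispersion, was 0.1547. The fit was tested on simulated data. DESeq2 1.42.0 was an alternative. Another 24 per-sample columns were left out.

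The 43 gene lists, the miRNA lists and the rule for names were chosen with earlier results of these data known. Named were called list members (up to 8 per list by lowest mean q), the first 3 of each list, all members of lists of up to 12, the 8 largest rises and falls, called or listed miRNAs and the 5 most abundant; textbook targets and host genes, and the Sst promoter, were chosen after values were seen. Lists are described by median signed mean fold instead of the planned log2 fold, because a mean fold under 1 in size has no log2 with a direction. Some named genes are not reported here.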

Additional observations from a re-analysis of the deposited data

How the results depend on the processing

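Counts of miRNAs higher and lower at 10 d, 11 and 3 in edgeR with TMM over 8 libraries, were 14 and 3 with RLE factors, 10 and 2 with only the 4 libraries compared, 6 and 4 after thinning to the smallest library, 21 and 5 without a filter, 30 and 1 with library totals alone, and 7 and 0 with DESeq2, which gave no adjusted p for 196. Library totals moved the median log2 fold change from -0.05 to 0.11. Leaving out 1 library gave 3 to 10 higher and 0 to 2 lower: 3 and 0 without control 7, and 4 and 0 without 10 d library 4, where the lone sample is assumed to vary like the other groups; the cause was not tested. miR-21a-5p, miR-146a-5p and miR-142-5p passed under all 10 alternatives, with adjusted p of at most 0.000152, miR-155-5p under 6 of 9 (highest adjusted p 0.165), miR-488-5p under 7 of 10 (0.157), miR-212-3p under 5 of 10 (0.153), miR-6243 under 5 of 10 (0.179), miR-5109 under 5 of 9 (0.185), miR-455-3p under 5 of 9 (0.150), miR-375-3p under 4 of 10 (0.129), miR-145a-5p under 3 of 10 (0.165), miR-673-3p under 3 of 10 (0.182), miR-1964-3p under 3 of 8 (0.188) and miR-1839-3p under 2 of 9 (0.269). No called miRNA changed direction. For mRNA, 982 genes were higher and 1472 lower at a mean q under 0.01, 1152 and 1659 at folds of at least 2, 1634 and 2278 with mixed genes counted by sign, 1385 and 2007 with the lowest-q row per gene, and 1801 and 2562 over transcripts. No paired analysis was possible because the small RNA columns carry no replicate letters and the mRNA values belong to no library. The smallest library limits what can be seen of rare miRNAs.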
